A study of Mus musculus with 6 samples.

Results

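The genes described here are 8 transcription factors that mark out the segments of the forming nephron: the Iroquois genes Irx1, Irx2, Irx3, Irx5 and Irx6, the Sim genes Sim1 and Sim2, and Pou3f3. They were taken as the genes to which the RefSeq accessions of the array's probes belong, and they are 8 of the 17305 genes that could be named. They were read on 12 probes, of which 5 genes had 1 each, Irx1 and Pou3f3 had 2 each and Irx2 had 3. RNA of whole embryonic kidneys at E14.5, from mice of mixed 129 and C57BL/6 background, had been hybridised to 6 single-colour arrays, 1 per sample. In the Six2Cre line, in which floxed Sall1 is deleted by a Cre active in nephron progenitors, there were 2 knockout arrays (replicates 7 and 9) and 2 control arrays (replicates 5 and 2). In the inducible line there was 1 knockout array, titled CreER/flox (replicate 5), and 1 control array, titled wt/flox (replicate 2), with tamoxifen at E12.5 and dissection 48 hours later. Only the knockout of that pair is titled with CreER, so effects of carrying CreER and of losing Sall1 cannot be told apart, and a description common to all samples mentions tamoxifen for the Six2Cre line too. Sall1 encodes a zinc finger factor of the nephron progenitors. The genotype is labelled for each sample, but its line was read from the style of its title together with the design text. Nothing in the labels says whether the Six2Cre controls carried Cre, how many kidneys made a sample, or whether samples came from separate embryos, so the p-values measure only the spread between these samples, which may be technical.

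Nephrons form from progenitors that gather into renal vesicles and then into comma-shaped and S-shaped bodies, along which proximal, medial and distal identities appear before tubule segments mature. Iroquois genes encode homeodomain factors of the TALE class that lie in clusters in the genome. In Xenopus and zebrafish they pattern the intermediate part of the pronephric tubule, and in the mouse Irx1, Irx2 and Irx3 mark the medial part of the S-shaped body and the loop of Henle that comes from it. Sim1 and Sim2 encode bHLH-PAS factors that bind DNA together with Arnt or Arnt2, and in zebrafish sim1a is needed for the late proximal segment and the corpuscle of Stannius. Pou3f3, also called Brn1, encodes a POU domain factor that the mouse needs to form the loop of Henle and the distal tubule.

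Promoter sequence, 250 bases before to 50 bases after the start of the gene, was matched by symbol for 4 of the 8 genes in RefSeq (GRCm38.p6): Irx2, Irx3, Sim1 and Pou3f3. The windows of Irx2, Sim1 and Pou3f3 are printed 5′ to 3′ on the strand of the gene, because their expression differences were large, intermediate and small. The capitals mark matches, on either strand, to TGGGAA, the core letters bound by the Notch effector RBPJ (TTCCCA on the opposite strand), and to ACANNTGT, the Iroquois motif, which contains the E-box letters CANNTG.
Irx2, chr13:72628570-72628869, plus strand: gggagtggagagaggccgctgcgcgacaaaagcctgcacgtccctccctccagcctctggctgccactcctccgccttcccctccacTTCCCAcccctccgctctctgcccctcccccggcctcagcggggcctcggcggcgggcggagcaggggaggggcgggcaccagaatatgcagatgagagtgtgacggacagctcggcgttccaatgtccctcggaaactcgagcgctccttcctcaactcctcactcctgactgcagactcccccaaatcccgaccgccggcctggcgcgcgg
Sim1, chr10:50895401-50895700, plus strand: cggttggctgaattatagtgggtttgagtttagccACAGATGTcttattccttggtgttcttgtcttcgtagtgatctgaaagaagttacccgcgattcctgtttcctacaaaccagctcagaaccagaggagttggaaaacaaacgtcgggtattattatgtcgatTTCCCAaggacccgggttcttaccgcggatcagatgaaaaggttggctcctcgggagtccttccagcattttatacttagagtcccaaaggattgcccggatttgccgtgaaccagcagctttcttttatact
Pou3f3, chr1:42695518-42695817, plus strand: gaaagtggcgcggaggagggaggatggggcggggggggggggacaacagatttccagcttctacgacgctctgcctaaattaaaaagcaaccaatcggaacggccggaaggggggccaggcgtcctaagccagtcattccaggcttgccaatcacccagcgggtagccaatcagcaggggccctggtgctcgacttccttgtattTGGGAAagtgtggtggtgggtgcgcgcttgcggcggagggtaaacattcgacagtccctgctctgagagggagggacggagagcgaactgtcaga

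Each of the 4 promoters held 1 match to TGGGAA, which 25.6% of the 32851 mouse promoters of that length hold. The match lay 163 bases before the start in Irx2, 83 in Sim1, 82 in Irx3 and 45 in Pou3f3. The Sim1 window alone held ACANNTGT, 215 bases before the start, and 7.38% of all promoters do. TACGTG, the site of Sim with Arnt, and ATGCAAAT, the octamer bound by POU factors, were in 0 of the 4 windows, against 3.23% and 1.74% of all promoters. The windows held 25 CpG dinucleotides in Irx2, 18 in Pou3f3, 14 in Irx3 and 13 in Sim1, against a median of 7 over all promoters. Fewer CpG than in these windows were held by 81.6%, 70.3%, 63.7% and 62.1% of all promoters, in the same order. The G and C content of the windows was 69% in Irx2, 60.3% in Pou3f3, 56% in Irx3 and 46% in Sim1, against a median of 52.7%. These matches describe letters in the window and were not tested as sites.

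Signal is given as a percentage of the array's own 75th percentile, and differences are log2 values, knockout minus control. All 8 genes were well above background on all 6 arrays with the probe that stands for the gene, the brightest of its probes. The share of all probes well above background was 71.6% on the CreER knockout and 79.9% to 82.9% on the other arrays, and the SD of its negative control spots was 4.01 against 1.46 to 1.61 elsewhere. Of the other markers, those of nephron progenitors were lower in Six2Cre knockouts for 10 of 10 genes (median difference -1.03, against -0.36 in the CreER pair). Among them Six2 was at -1.60, and -0.50 in the CreER pair, and Cited1 at -4.16, and -2.85 in the CreER pair. The mean log2 level of the progenitor markers, relative to the 75th percentile, was -0.26 and -0.21 in Six2Cre knockouts and 0.97 and 1.03 in Six2Cre controls. It was 0.51 in the CreER knockout and 1.097 in the CreER control. Stroma markers were higher for 9 of 10 (median 0.60), with mean levels of 3.30 and 3.14 in Six2Cre knockouts and 2.70 and 2.38 in Six2Cre controls. Macrophage markers were higher for 5 of 6 (median 0.79), with mean levels of -1.55 and -1.11 in Six2Cre knockouts and -2.02 and -1.88 in Six2Cre controls. Erythroid markers were higher in the CreER knockout for 5 of 5 (median 0.82), with mean levels of 1.07 in the knockout and 0.25 in the control. All markers of these 4 lists were well above background on every array, and the part of these shifts in the values that follow was not tested. Sall1 itself was 2.38-fold lower in Six2Cre knockouts and 6.86-fold lower in the CreER knockout, by the 1 probe used for it, and the sources used here do not say whether that probe lies in the floxed part. In whole kidneys, fewer cells of a type and less RNA per cell cannot be told apart.

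Sim2, Irx2 and Irx1 were many-fold lower in both Six2Cre knockouts, Sim1, Irx5 and Pou3f3 were lower by less than 2-fold on average, Irx3 differed widely between slides, and Irx6 differed little. All 8 genes had a negative Six2Cre difference, with a median of -1.05, where the median of all 26393 features was 0.03 and 46.1% of features were below 0. In the CreER pair 7 of the 8 were lower, with a median of -0.58 against -0.01 over all features. Limma, fitted across all features with 2 residual degrees of freedom, called none of the 8 at an adjusted p of 0.05. In that test 0% of features were called lower, the lowest adjusted p of any feature was 0.0862, and 711 features were lower and 954 higher at an unadjusted p under 0.05. At that unadjusted p, 4 of the 8 genes were lower (Sim2, Irx2, Irx1 and Sim1).

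**Figure D1:**
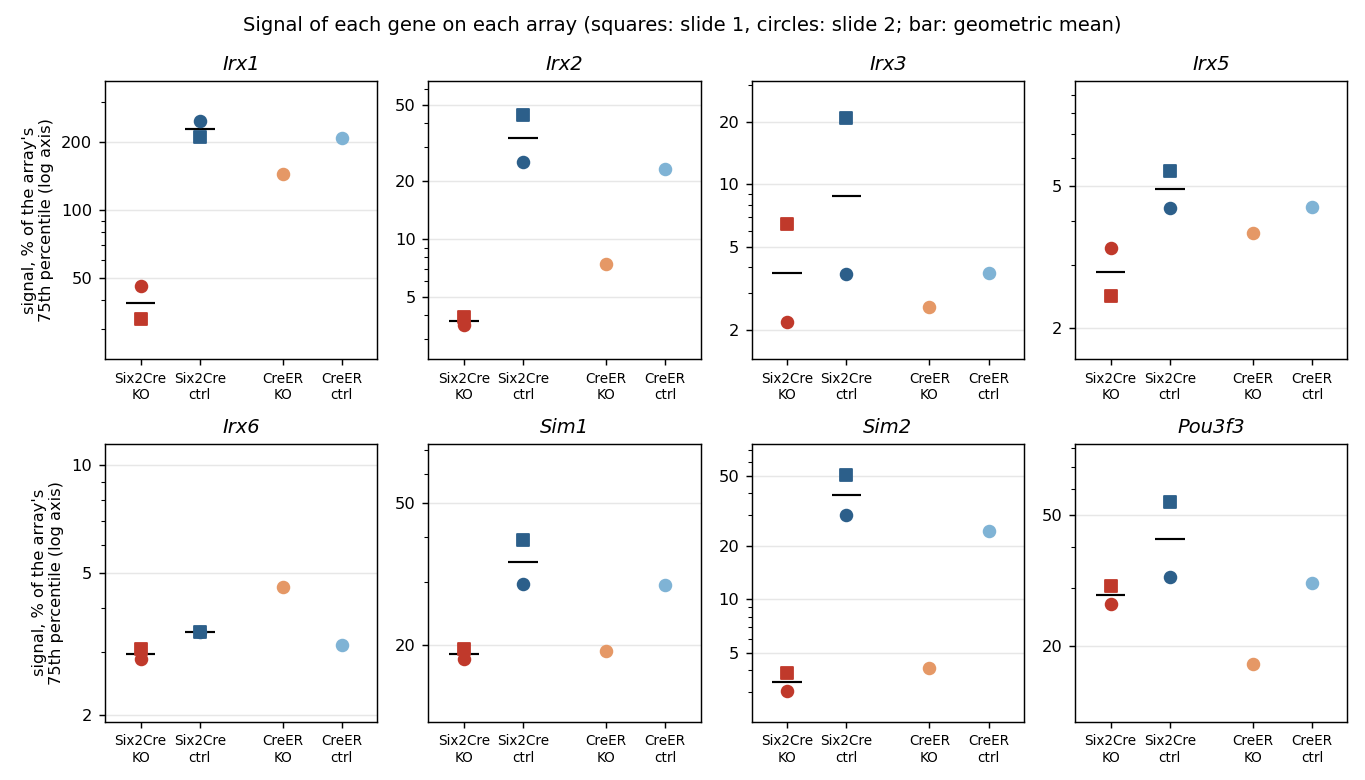
Signal of each gene on each array, as a percentage of the array's 75th percentile on a log axis, in Six2Cre knockout (KO), Six2Cre control (ctrl), CreER knockout and CreER control kidneys. Squares are arrays of slide 1, circles arrays of slide 2, and bars geometric means of the 2 arrays of a Six2Cre group. Irx1, Irx2 and Sim2 separate Six2Cre knockouts from controls widely, and the Irx3 values split by slide.

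Irx1 and Irx2 are neighbours in one Iroquois cluster, which also holds Irx4. Irx1 signal was 33.1% and 46.3% of the 75th percentile in the Six2Cre knockouts (replicates 7 and 9), against 211% and 248% in the Six2Cre controls (replicates 5 and 2). It was 144% in the CreER knockout and 208% in the CreER control. Both Six2Cre knockouts thus lay below every other array, and the CreER knockout lay between them and the 3 controls, which were close to each other. The Six2Cre means were 39.7% ± 9.36 in knockouts and 229% ± 25.9 in controls (SD, n = 2 each). Irx1 was 5.84-fold lower, with a log2 difference of -2.55 (SE 0.30, 95% interval -3.32 to -1.77, limma adjusted p = 0.121). The slide 1 pair gave -2.67 and the slide 2 pair -2.42, so that with this probe the estimate hardly depended on the slide. The other Irx1 probe gave -3.42 and -2.49. With the main probe the CreER pair gave -0.53, a 1.44-fold lower signal.

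Irx2 signal was 3.94% and 3.55% in the Six2Cre knockouts, against 44.2% and 25.1% in the Six2Cre controls. It was 7.35% in the CreER knockout and 23.1% in the CreER control. All 3 knockout arrays were below all 3 controls, and the knockouts of the Six2Cre line were the lowest. The Six2Cre means were 3.74% ± 0.28 in knockouts and 34.7% ± 13.5 in controls (SD, n = 2 each), an 8.92-fold lower signal (log2 difference -3.16, SE 0.36, 95% interval -4.10 to -2.21, limma adjusted p = 0.118). The slide pairs gave -3.49 and -2.82. In the CreER pair the log2 difference was -1.65, a 3.14-fold lower signal.

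The remaining Iroquois members lie together in the second cluster, apart from Irx1 and Irx2. Irx3, needed for the intermediate pronephric tubule in Xenopus, had 6.44% and 2.17% of the 75th percentile in the Six2Cre knockouts, against 21.0% and 3.72% in the Six2Cre controls. It was 2.57% in the CreER knockout and 3.74% in the CreER control. The slide 1 knockout had more signal than the slide 2 control, so the Six2Cre groups overlapped although the knockout was lower on either slide. Slide 1 was above slide 2 by 2.97-fold in knockouts and 5.63-fold in controls, and Irx3 was the only gene of the 8 at least 2-fold higher on slide 1 in both genotypes, as were 761 of all features (2.88%). Its mean difference was -1.24 with an SE of 0.99 (95% interval -3.84 to 1.36, limma adjusted p = 1.00), and without Six2Cre control 5 it was 0.00615. Within slides it was -1.70 on slide 1 and -0.78 on slide 2, and with the slide as a block its SE was 0.30 (limma adjusted p = 0.307). The CreER pair gave -0.54.

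Irx5 is known in the mouse for the gradient of repolarisation across the heart wall and, like Irx6, for retinal bipolar cells. Irx5 signal was 2.46% and 3.36% in the Six2Cre knockouts, against 5.52% and 4.36% in the Six2Cre controls, with 3.70% in the CreER knockout and 4.37% in the CreER control. The 3 knockouts were below the 3 controls, and the CreER knockout lay near the higher of the Six2Cre knockouts. Irx5 was 1.71-fold lower in the Six2Cre line (log2 difference -0.77, SE 0.30, 95% interval -1.56 to 0.02, limma adjusted p = 0.808), with -1.17 on slide 1 and -0.38 on slide 2. Irx6 signal was 3.05% and 2.87% in the Six2Cre knockouts, against 3.41% and 3.42% in the Six2Cre controls. It was 4.57% in the CreER knockout, the highest of all 6 arrays, and 3.13% in the CreER control. Irx6 gave the smallest Six2Cre difference of the 8 genes (-0.21, SE 0.24, 95% interval -0.83 to 0.42, limma adjusted p = 1.00), and its CreER difference was 0.55 in the other direction. That CreER knockout is the array with the noisier negative controls noted above, and the part of this noise in the Irx6 value was not tested.

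Sim2 had the largest difference of the 8 genes. Its signal was 3.84% and 3.05% in the Six2Cre knockouts, against 50.5% and 30.0% in the Six2Cre controls. It was 4.12% in the CreER knockout and 24.5% in the CreER control. All 3 knockouts had similar low values and all 3 controls were several-fold above them. On the log2 scale, relative to the 75th percentile, Six2Cre means were -4.87 ± 0.23 in knockouts and -1.36 ± 0.53 in controls (SD, n = 2 each), an 11.4-fold lower signal (log2 difference -3.51, SE 0.36, 95% interval -4.45 to -2.57, limma adjusted p = 0.103). The slide pairs gave -3.72 and -3.29, and the CreER pair gave -2.57, a 5.94-fold lower signal. Only 0.14% of all features had a lower Six2Cre difference than Sim2, and 0.0909% a lower CreER difference.

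Sim1 signal was 19.4% and 18.3% in the Six2Cre knockouts, against 39.2% and 29.5% in the Six2Cre controls, with 19.2% in the CreER knockout and 29.5% in the CreER control. The 3 knockouts were within a narrow range below all 3 controls. Sim1 was 1.81-fold lower in the Six2Cre line (log2 difference -0.85, SE 0.27, 95% interval -1.57 to -0.13, limma adjusted p = 0.654), with -1.01 and -0.69 in the slide pairs and -0.62 in the CreER pair. Of the genes for their binding partners, Arnt had a Six2Cre difference of 0.20 (SE 0.31) and Arnt2 of 0.09 (SE 0.24), and in the CreER pair the values were 0.04 and 0.13. Skeletal muscle markers stood out on Six2Cre control 2, at a mean log2 level of 0.57 over 10 markers, against -3.77 to -2.35 on the other arrays. On that array Sim1 and Sim2 had less signal than on Six2Cre control 5, which lay on the other slide. Between these arrays muscle and slide cannot be told apart. The CreER control, of the other line, lay on the same slide as Six2Cre control 2, with muscle markers at -3.77. Its signal was 29.5% for Sim1 and 24.5% for Sim2, beside 29.5% and 30.0% on Six2Cre control 2. Without Six2Cre control 2 the Six2Cre differences were -1.06 for Sim1 and -3.88 for Sim2. The part of muscle in the Six2Cre differences was not tested. In the CreER pair the muscle markers were higher in the knockout for 10 of 10 genes (median 1.51, mean level -2.35 in the knockout and -3.77 in the control), and their part in the CreER differences was not tested.

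Pou3f3 signal was 30.5% and 26.9% in the Six2Cre knockouts, against 55.0% and 32.5% in the Six2Cre controls. It was 17.7% in the CreER knockout, the lowest of all arrays, and 31.1% in the CreER control. Its Six2Cre difference was -0.56 (SE 0.35, 95% interval -1.48 to 0.35, limma adjusted p = 1.00), with -0.85 on slide 1 and -0.28 on slide 2, and its CreER difference was -0.82. With this probe it was the only gene of the 8 with a larger drop in the CreER pair than in the Six2Cre line. Its other probe had the larger drop in the Six2Cre line (-0.83, against -0.46 in the CreER pair), and the difference between lines turned from 0.25 to -0.0564 with the mean over probes and to -0.12 without Six2Cre control 2. Its relative Pou3f1, a POU factor known from Schwann cells and epidermis, was 2.23-fold lower in Six2Cre knockouts (log2 difference -1.16, SE 0.30, limma adjusted p = 0.496) and -0.01 in the CreER pair. The 1 probe each of Pou3f2 and Pou3f4 was well above background on 0 of 6 arrays. Irx4, the third gene of the Irx1 and Irx2 cluster, was -0.55 (SE 0.27) and -0.11, and Fto, the neighbour of Irx3, was -0.10 (SE 0.30) and 0.09.

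**Figure D2:**
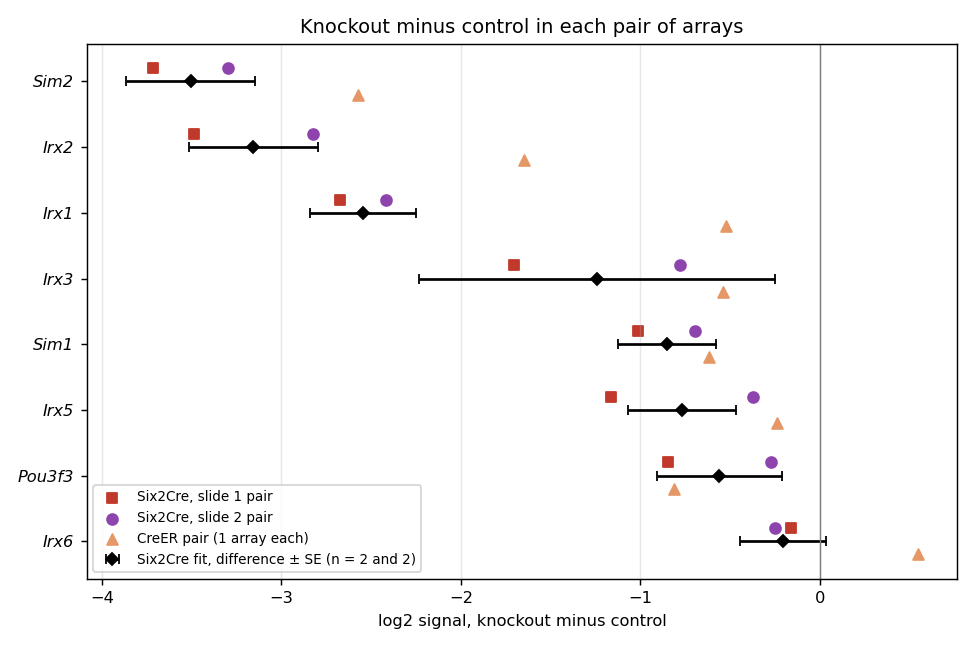
Log2 signal, knockout minus control, of each gene in the Six2Cre pairs of slide 1 (squares) and slide 2 (circles) and in the CreER pair (triangles). Diamonds are the Six2Cre limma differences with their SE (n = 2 and 2 arrays). Sim2, Irx2 and Irx1 lie beyond -2 in both Six2Cre pairs, and Irx6 alone is above 0 in the CreER pair.

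Irx1, Irx2 and Sim2 were at least 2-fold lower in both Six2Cre slide pairs (3 of 8), where 1.68% of all features were. Both Six2Cre knockouts were below both controls for 7 of the 8 genes, all but Irx3, where 12.6% of all features were. In the CreER pair, Irx2 and Sim2 (2 of 8) were at least 2-fold lower, where 2.21% of 25924 features were. The same 2 genes were at least 2-fold lower in all 3 pairs, where 0.288% of features were. For 6 of the 8, all but Irx3 and Irx6, the 3 knockouts lay below the 3 controls, where 4.44% of features did. The 8 genes were chosen with earlier results of these data known. Their counts beside shares of all features, here and elsewhere, are therefore a description and not a test. The smallest two-sided p an exact permutation test can give for 3 against 3 arrays is 0.1, if all 6 arrays are exchanged freely. Exchanges kept within line or slide have fewer arrangements, so their smallest p is higher.

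When the slide was fitted as a block, the limma adjusted p was 0.0926 for Sim2, 0.103 for Irx1 and 0.106 for Irx2. The value of Sim2 was the lowest over all features, but it was a tie. Cited1, Slc12a1, Kcnj1, Umod, Slc34a1 and Amn had the same adjusted p. With a mean-variance trend and robust estimation added to that block, limma called Irx1 (adjusted p = 0.00222), Sim2 (0.00451) and Irx2 (0.00472) lower in Six2Cre knockouts, 3 of the 8 genes, where 1.22% of features were called lower. This setting was known from earlier work on these data to make more calls. Sim1 (0.109), Irx3 (0.145), Pou3f3 (0.325), Irx5 (0.372) and Irx6 (0.815) did not pass there.

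Fitted over both lines together, with terms for line and slide, the genotype difference was -3.19 for Sim2 (SE 0.26, limma adjusted p = 0.214), -2.65 for Irx2 (SE 0.39, adjusted p = 0.271) and -1.87 for Irx1 (SE 0.48, adjusted p = 0.434). None of the 8 genes passed, with 0% of features called lower. At an unadjusted p under 0.05 there were 1032 features lower and 1525 higher, and 6 of the 8 genes were among the lower ones. With trend and robust estimation limma called Sim2 alone of the 8 (adjusted p = 0.0345), where 0.0227% of features were called lower. Irx3, with the slide taken into account in this fit, was -1.01 (SE 0.27, adjusted p = 0.438). Irx6 was 0.04 (SE 0.21, adjusted p = 0.950).

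The difference between lines, Six2Cre minus CreER, was not called for any of the 8 genes by limma, with 0% of features called and 617 at an unadjusted p under 0.05. This test assumes that the lone CreER arrays vary like the Six2Cre groups. Its largest value among the 8 was that of Irx1 (-2.02, SE 0.51, 95% interval -3.36 to -0.68, limma adjusted p = 1.00). Irx1 was also the only gene of the 8 with an unadjusted p under 0.05 in this contrast. The intervals of the others included 0: Irx2 was -1.51 (SE 0.62), Sim2 -0.93 (SE 0.62), Irx6 -0.75 (SE 0.41), Irx3 -0.70 (SE 1.72), Irx5 -0.53 (SE 0.52), Sim1 -0.24 (SE 0.47) and Pou3f3 0.25 (SE 0.60). The interval of Irx3, from -5.20 to 3.80, was the widest.

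The lists of genes of the same nephron segments give the setting of these values. In the distal early nephron list, which includes Pou3f3, 12 of 15 measured genes were lower in Six2Cre knockouts (median -0.56) and 10 in the CreER pair (median -0.35). No gene of this or the next 3 lists passed the limma test over all features. Its largest differences were those of the Wnt antagonist Dkk1 (-1.73, and -2.02 in the CreER pair), the LIM homeodomain gene Lhx1 (-1.59 and -0.15), the Notch ligand gene Dll1 (-1.57 and -0.47) and Tfap2b (-1.19 and -0.42). The medial and proximal list had 14 of 14 genes lower in Six2Cre knockouts, with a median of -0.65, and 5 of 14 in the CreER pair, with a median of 0.13. Hnf4a, a proximal tubule factor, was -3.36 and 0.10, the Notch target Hes5 -2.08 and -1.13, Osr2 -1.71 and -0.08, and Fgf8, a growth factor of the renal vesicle, -1.04 and 0.16.

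In the loop of Henle and distal tubule list 11 of 16 genes were lower in Six2Cre knockouts (median -0.63), and 12 of 16 in the CreER pair (median -0.24). Slc12a1, the cotransporter of the thick ascending limb, was -6.21 and -1.05, the potassium channel gene Kcnj1 -5.12 and -0.98, Umod, which encodes uromodulin, -3.02 and -1.46, and the prostaglandin receptor gene Ptger3 2.35 and -0.20. In the proximal tubule list 10 of 13 genes were lower in Six2Cre knockouts (median -1.60) and 5 of 13 in the CreER pair (median 0.23), with the phosphate transporter gene Slc34a1 at -5.71 and -0.12 and Amn, which encodes a part of the endocytic receptor, at -3.80 and -0.27. The glucose transporter gene Slc5a2 was -2.54 and 0.23. Spp2, which encodes a secreted phosphoprotein and was well above background on 5 of 6 arrays, was -4.49 and 0.73. Sim2 and Irx2 were thus lower in the CreER pair than these lists' medians, at -2.57 and -1.65. So were single genes of the lists, among them Dkk1 (-2.02), Umod (-1.46) and Hes5 (-1.13). The CreER median of the 8 genes themselves was -0.58. With the slide block, trend and robust estimation, limma called 4 genes of the distal early list, 6 of the medial and proximal list, 6 of the loop and distal tubule list and 8 of the proximal tubule list lower, and Ptger3 higher. No test of the list medians was made.

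**Figure D3:**
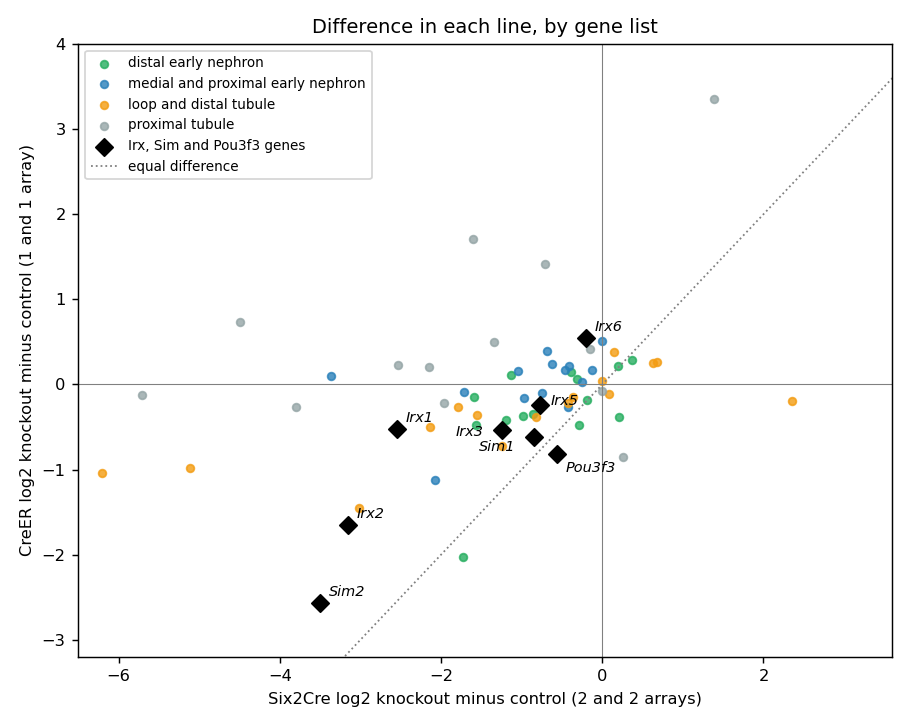
Difference of each gene in the Six2Cre line (horizontal axis, log2 signal, knockout minus control, 2 and 2 arrays) against its difference in the CreER pair (vertical axis, log2, 1 and 1 array), for the 8 genes (diamonds) and the genes of 4 nephron lists (circles). The dotted line marks equal differences. Sim2 and Irx2 are far below 0 on both axes. The list genes Dkk1, Umod and Hes5 are low on both axes too, at -2.02, -1.46 and -1.13 in the CreER pair. Slc12a1, Kcnj1 and Slc34a1 are much lower in the Six2Cre line than in the CreER pair.

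For each gene the profile over 6 arrays was set beside those of the named genes whose log2 values ranged over at least 1 unit. The arrays share genotype, slide and line, so the correlations describe these arrays alone and carry no p. The 3 most alike to Irx1 were Sobp (r = 0.998), Vil1, the brush border gene for villin (r = 0.997), and Fam189a2 (r = 0.997). Those of Irx2 were Igsf11 (r = 0.996), Tfap2b (r = 0.992) and Atp1b1, a sodium pump subunit (r = 0.990). Sim1 and Sim2 were alike to each other (r = 0.986), and Tppp was nearest to Sim2 (r = 0.992). The next nearest to Sim1 were Adgrg2 and Nefl, and Igsf11 was the second nearest to Sim2. Irx3 was nearest to Cdc25a (r = 0.995), Tob1 and Myc, and Irx5 to Thsd4 (r = 0.995), Atcay and Atp2b2. Irx6 was nearest to Slc3a1 (r = 0.990), Gpr12 and S1pr4, and Pou3f3 to Sgip1 (r = 0.981), Atg9b and Tex16. Between members, Irx2 and Sim2 had r = 0.983 and Irx6 ran from -0.47 to 0.44 with the other 7.

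The probes of a gene can be set against each other for their differences. For Irx1 the second probe gave -3.42 on slide 1, -2.49 on slide 2 and -0.51 in the CreER pair, a larger slide 1 difference than the -2.67 of the main probe and like values in the other pairs. For Irx2 a second probe gave -3.87, -2.71 and -1.98. The third Irx2 probe was not well above background on any of the 3 knockout arrays. Its knockout signal was therefore raised to that of the array's dimmest probe well above background. By this rule it was 5.65-fold lower in Six2Cre knockouts and 1.58-fold lower in the CreER knockout. The limit of this probe itself may be higher, so these folds are not strict lower bounds. For Pou3f3 the other probe gave -0.83, -0.83 and -0.46, which differ in the slide 2 and CreER pairs from the -0.28 and -0.82 of the main probe. No probe of the 8 genes was saturated, and 11 of the 12 were well above background on all 6 arrays.

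**Figure D4:**
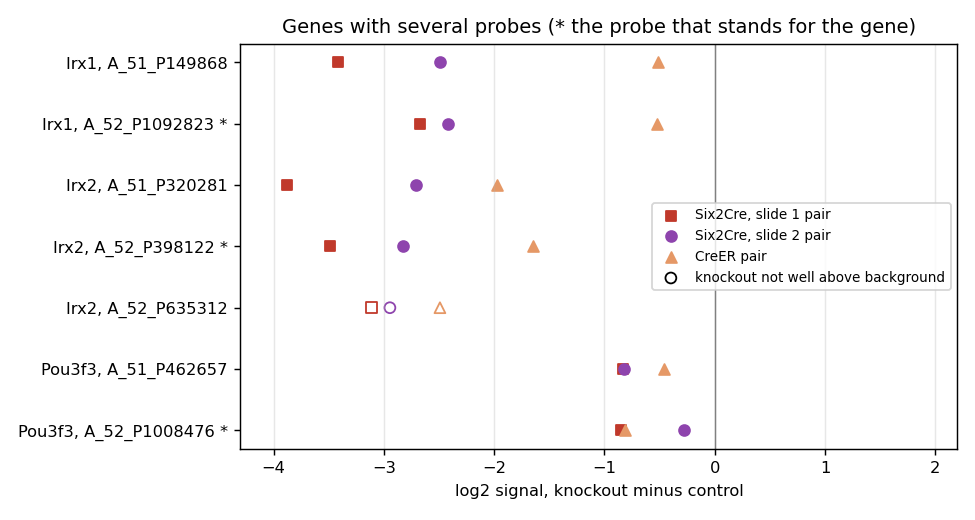
Log2 signal, knockout minus control, by probe for the 3 genes with several probes, in the Six2Cre slide 1 pair (squares), the Six2Cre slide 2 pair (circles) and the CreER pair (triangles), where * marks the probe that stands for the gene. Open symbols are pairs whose knockout was not well above background. The probes of Irx1 and of Irx2 all lie beyond -2 in the Six2Cre pairs, and the probes of Pou3f3 differ in the slide 2 pair.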

How the data were processed

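Single-colour Agilent arrays, 1 per sample, measured 6 mouse kidney samples. Per the labels, RNA was labelled with Cy3; per the file headers, the deposited scanner files hold the processed signal as a linear intensity, with background subtracted and no normalization between arrays, from Feature Extraction 10.5.1.1. The authors' series table repeats that intensity, within a relative tolerance of 0.001 for 100% of single-spot values.

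From these, spots with outlier flags were left out, leaving 40987 of 41174 probes. Probes were named by RefSeq accession (25097 probes, 17305 genes). The deposited intensity was converted to log2, and the array's 75th percentile was subtracted. The brightest probe on average stands for a gene, and 26393 features well above background on 2 or more arrays were kept. Limma 3.58.1 (R 4.3.3, data.table version 1.17.8) fitted the 4 groups with lmFit and eBayes, two-sided, with Benjamini-Hochberg adjustment over all features. A second limma fit took genotype with line and slide. Slide 1 held Six2Cre knockout 7 and control 5, slide 2 the others, and scan batches followed the slides. The CreER pair has no test: at least 2-fold among features well above background on 1 or both arrays is counted. Figures were drawn with matplotlib 3.10.9. The number of arrays limits the precision.

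The members and lists were chosen with earlier results of these data known. Named genes are the 8 members with all their probes, their relatives and neighbours (of which Crnde and Pantr1 had no named probe), Sall1 and progenitor markers, the 4 of largest difference in each nephron list, and the 3 of highest correlation with each member. Alternatives were the slide as a block with and without trend and robust estimation, quantile normalization, normexp, another percentile, other filters, the mean over probes, the series table, the Six2Cre arrays alone, other folds, and leaving out each array.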

Additional observations from a re-analysis of the deposited data

Results flagged for a closer look

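Irx6 was flagged because its difference between knockout and control ran in opposite directions in the lines. It was -0.16 and -0.25 in the Six2Cre slide pairs and 0.55 in the CreER pair, and the difference between lines was -0.75 (SE 0.41, limma adjusted p = 1.00), which did not pass the test.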

How the results depend on the processing

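With a slide block, trend and robust estimation limma called 323 features lower and 304 higher in Six2Cre knockouts, and 12 for genotype; normexp gave 47 for genotype. At 1.5-fold, 5 of the 8 genes were lower in both slide pairs and 4 in the CreER pair, and at 4-fold 1 was in the CreER pair. The shares of all features at 1.5-fold and 4-fold were not computed, so these counts cannot be read against them. By replicate number, no paired analysis was possible because the groups compared share fewer than 2 replicate numbers; the slide block, which sets each Six2Cre knockout against the control of its own slide, was fitted in its place, and without trend and robust estimation limma called 0 features (1199 lower and 1854 higher at an unadjusted p under 0.05). Leaving out 1 array, Irx3 ran from -2.49 to 0.00615 in the Six2Cre line and from -1.95 to 0.55 between lines (0.0836 without knockout 9), Irx6 from -0.21 to 0.19 for genotype, and Pou3f3 from -0.12 to 0.63 between lines (-0.0564 with the mean over probes). The Six2Cre differences of Irx1, Irx2 and Sim2 ran from -2.79 to -2.30, from -3.56 to -2.51 and from -3.88 to -2.65 over all alternatives. With normexp the CreER differences of Irx2, Sim2 and Irx6 were -1.22, -1.78 and 0.46, and the genotype adjusted p of Sim2 in limma was 0.0240. The CreER differences of the dim genes Irx3 and Irx5 shrank to -0.16 and -0.02 with normexp, and their Six2Cre differences to -0.86 and -0.43. In the CreER pair Irx1, Sim1 and Pou3f3 were then at -0.50, -0.50 and -0.71. The cause of these moves was not tested. The 7 genes with Six2Cre groups that did not overlap became 6 with quantile normalization and with normexp. They became 8 without Six2Cre knockout 7 and without Six2Cre control 2, where fewer arrays make non-overlap easier to reach. The share of all features was not computed in these alternatives. With 2 residual degrees of freedom and 1 CreER pair, the number of arrays limits these values, and the CreER knockout had fewer probes above background.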
